A study of Mus musculus with 55 samples.

Results

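Glycolysis and the cellular response to low oxygen were followed through 34 genes, chosen by symbol from the 15728 distinct symbols measured in each library. The set holds the enzymes and enzyme regulators HK1, HK2, HK3, PFKL, PFKP, PFKFB3, PFKFB4, ALDOA, ALDOC, TPI1, GAPDH, PGK1, PGAM1, ENO1, ENO3, PKM, LDHA, LDHB, PDK1 and PDK3. It also holds the hypoxia response genes HIF1A, VEGFA, BNIP3, BNIP3L, EGLN1, EGLN3, P4HA1, ANKRD37, DDIT4, MIF, NDRG1, MXI1, KDM3A and ADM. They were measured in 55 MARS-seq libraries, a 3'-end RNA sequencing method for small samples, from cells sorted out of mouse bone marrow in a study of breast cancer metastasis to bone. The sorted gates were granulocytes, CD4+ T helper cells, CD8+ cytotoxic T cells and CD4+CD25+ cells labelled T regulatory, called Treg here. Each gate was taken from normal marrow, from marrow at an early metastatic stage and, at the late metastatic stage, from peripheral marrow and from the metastatic core of the same mouse. In that order of marrow, granulocytes and CD4 had 4, 4, 4 and 3 libraries, CD8 had 4, 4, 2 and 2, and Treg had 4, 3, 3 and 3. The core granulocytes carry the tissue label bone marrow and were placed by their titles. The titles of the early libraries read Premet. Mouse strain, age, tumour line and the number of cells per library are not given in the sources used here.

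Glycolysis splits glucose into pyruvate in the cytosol. Hexokinases trap glucose as its phosphate, phosphofructokinase commits it to the pathway, aldolase and triose phosphate isomerase yield the triose that GAPDH oxidises, and pyruvate kinase forms pyruvate, which lactate dehydrogenase reduces to lactate. HIF-1 is the transcription factor of low oxygen: prolyl hydroxylases of the EGLN family mark its alpha subunit for destruction while oxygen is present, and in hypoxia it binds hypoxia response elements with the core letters ACGTG or GCGTG at genes for glucose uptake, glycolysis, angiogenesis and mitophagy. Neutrophils depend mainly on glycolysis for ATP, and T cells raise it when activated.

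Promoters of 4 genes that the results below turn on are shown because their measured levels moved with marrow stage (LDHA, MIF, HK2) or between the core and peripheral marrow (HILPDA, a hypoxia-induced gene from a list of other genes), and that of TPI1 because it moved while its window lacks the core letters. Each run covers 250 bases before to 50 after a RefSeq gene start in GRCm38.p6, printed 5′ to 3′ on the gene's strand, with ACGTG and GCGTG, or their reverse complements (CACGT and CACGC), in capitals. The windows lie at chr7:46845554-46845853 on the plus strand for LDHA, chr10:75860228-75860527 on the minus strand for MIF, chr6:82774405-82774704 on the minus strand for HK2, chr6:29272376-29272675 on the plus strand for HILPDA and chr6:124814109-124814408 on the minus strand for TPI1.
LDHA: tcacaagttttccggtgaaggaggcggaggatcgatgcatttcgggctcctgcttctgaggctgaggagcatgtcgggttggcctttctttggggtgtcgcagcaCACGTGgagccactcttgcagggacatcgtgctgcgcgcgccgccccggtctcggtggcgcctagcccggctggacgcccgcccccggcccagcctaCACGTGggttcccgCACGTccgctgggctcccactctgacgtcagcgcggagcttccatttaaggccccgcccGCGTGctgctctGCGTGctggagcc
MIF: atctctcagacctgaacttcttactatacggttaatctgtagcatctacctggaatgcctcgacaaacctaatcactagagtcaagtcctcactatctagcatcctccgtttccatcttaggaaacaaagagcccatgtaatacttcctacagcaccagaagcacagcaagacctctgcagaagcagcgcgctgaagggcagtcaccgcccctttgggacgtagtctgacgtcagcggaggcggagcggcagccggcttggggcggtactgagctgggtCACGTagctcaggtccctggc
HK2: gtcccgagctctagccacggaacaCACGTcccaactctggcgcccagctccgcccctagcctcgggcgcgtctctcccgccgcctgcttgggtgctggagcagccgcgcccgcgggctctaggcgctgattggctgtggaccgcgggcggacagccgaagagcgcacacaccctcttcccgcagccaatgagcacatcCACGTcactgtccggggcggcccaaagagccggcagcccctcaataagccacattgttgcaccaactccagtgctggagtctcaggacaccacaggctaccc
HILPDA: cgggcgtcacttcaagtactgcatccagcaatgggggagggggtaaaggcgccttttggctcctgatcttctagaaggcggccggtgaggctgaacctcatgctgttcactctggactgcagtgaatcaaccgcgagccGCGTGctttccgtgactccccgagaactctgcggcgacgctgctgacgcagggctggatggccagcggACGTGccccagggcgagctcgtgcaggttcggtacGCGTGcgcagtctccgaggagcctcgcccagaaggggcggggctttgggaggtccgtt
TPI1: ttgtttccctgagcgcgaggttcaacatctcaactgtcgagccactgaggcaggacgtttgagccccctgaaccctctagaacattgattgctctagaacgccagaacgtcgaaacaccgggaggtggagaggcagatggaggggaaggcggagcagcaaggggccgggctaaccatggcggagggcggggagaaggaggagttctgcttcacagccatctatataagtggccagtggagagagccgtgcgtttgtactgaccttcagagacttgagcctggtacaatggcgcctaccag
The LDHA window holds the letters at 7 places, counting each strand, and includes CACGTG, in which ACGTG and CACGT overlap. HILPDA holds them at 3 places, HK2 at 2, MIF at 1 and TPI1 at 0. LDHA and HILPDA each have a further window, not shown, with fewer places: 2 without CACGTG for LDHA and 1 for HILPDA. Among other genes that moved with stage, PKM has windows with 0 and 2 places and HK3 a window with 1. Over all 32851 promoters of the table, 43.8% hold at least 1 such place and 20.6% at least 2. Of the 34 genes 32 matched the table, with 47 promoters, of which 38, or 80.9%, hold at least 1 place and 51.1% at least 2. These are matches of letters, not measured binding sites. NDRG1 and BNIP3L had no entry in the table.

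Values are reads divided by 1 factor per library, computed over all gates together, and are called scaled reads below. How well levels compare between gates as unlike as granulocytes and T cells was not tested. Depth in recovered reads ran from 357058 to 1633022 for granulocyte libraries, from 68263 to 876798 for CD4, from 43224 to 1148806 for CD8 and from 90075 to 429903 for Treg. Transcripts of 6 lung genes summed to at least 349 scaled reads in 24 of the 55 libraries and to at most 82.4 in the other 31, so results are also given without the 24. The gates carried their defining genes unevenly. CD4 stood at 94.7 to 125 in normal CD4 libraries and CD8A at 24.9 to 52.7 in normal CD8 libraries. In those CD8 libraries CD4 was also at 26.2 to 50.7, in the range of CD8A, while CD8A was at 1.71 to 4.32 in normal CD4. T cell markers, 6 of 8 measured, summed to 892 to 1108 in normal and 285 to 451 in early CD8. The Treg label was not borne out by FOXP3, the defining regulatory T cell factor, in normal marrow. It was at 0 to 2.18 in Treg there against 6.61 to 9.95 in CD4, and IL2RA, which encodes CD25, was at 0 to 1.09 in Treg. All 4 regulatory T cell markers summed to 8.85 to 11.8 in normal Treg and 12.1 to 16.3 in normal CD4, a smaller gap than that of FOXP3. In the same Treg libraries 8 macrophage markers of 8 summed to 6788 to 7681, against 266 to 452 in CD4. In sorted bulk samples a smaller share of cells that express a gene and less RNA of it per cell cannot be told apart. Since the labels do not say which animal gave each library of a group, p-values measure the spread between libraries, which may be technical.

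Of the 34 genes, 25 reached 10 scaled reads in enough libraries of a gate, at least the size of its smallest group, and were tested between stages in at least 1 gate: 20 for granulocytes, 17 for CD4, 19 for CD8 and 19 for Treg. The other 9 were PFKP, ALDOC, ENO1, PDK1, EGLN3, P4HA1, ANKRD37, MXI1 and KDM3A. ENO1, the ubiquitous enolase, was listed at 0 in every library, while ENO3, the muscle-type enolase, was detected. Over all 55 libraries MXI1, a MYC antagonist, had 2 reads, PFKP, the platelet-type phosphofructokinase, 6, ALDOC, a brain-type aldolase, 16, PDK1, a pyruvate dehydrogenase kinase, 29 and P4HA1, a collagen prolyl hydroxylase subunit, 60. Together the 34 genes took 0.885 to 1.71% of the scaled reads of a granulocyte library, 0.378 to 0.852% for CD4, 0.363 to 0.863% for CD8 and 0.426 to 1.14% for Treg.

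GAPDH, the glycolytic dehydrogenase often used as a reference gene, lay at 2 levels in every gate, and the 2 levels occurred inside single groups. The gene lies at chr6:125161715-125166467 on the minus strand of GRCm38. In granulocytes it stood at 1537, 1838, 56 and 20.3 scaled reads in the 4 normal libraries and at 24.7, 2178, 28.3 and 2074 in the 4 early ones. It stood at 1649.8, 1665, 2031 and 19.1 in late peripheral and at 22.1, 2128 and 2255 in late core marrow. Each granulocyte group thus held libraries at each level, 6 libraries at 19.1 to 56.0 and 9 at 1537 to 2255, with none between.
In CD4 it was 3.3, 4.32, 5.43 and 2.27 in normal, 7.41, 3.97, 5.36 and 3.69 in early, 663, 7.19, 5.89 and 352 in late peripheral and 3.47, 299 and 8.09 in late core marrow. The 3 high CD4 libraries were therefore all of the late stage. In CD8 it was 3.32, 7.12, 3.27 and 6.85 in normal, 466, 2.36, 20.1 and 273 in early, 262 and 4.69 in late peripheral and 14.8 and 769 in late core marrow. In Treg it was 7.74, 4.48, 388 and 4.36 in normal, 46.2, 24.6 and 15.3 in early, 765, 1457 and 4.31 in late peripheral and 16.8, 1255 and 18 in late core marrow. No CD8 library of normal marrow and no early Treg library was at the high level.

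**Figure D1:**
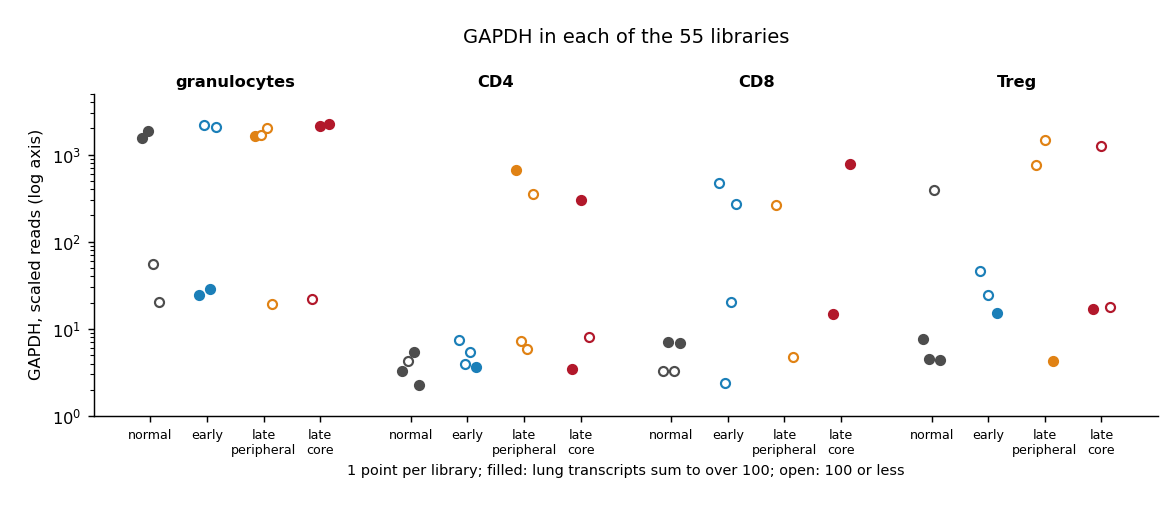
GAPDH in scaled reads on a log axis, 1 point per library, by gate and marrow stage; filled points are libraries in which lung transcripts sum to over 100. In granulocytes 9 libraries lie at 1537 to 2255 and 6 at 19.1 to 56.0, and every granulocyte stage holds libraries of each kind.

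The standard deviation of GAPDH within groups, on the log2 scale, was 3.37 in granulocytes, where it ranked 1 of 3808 tested genes and the median gene had 0.357. It was 2.10 in CD4 (rank 7 of 4534), 2.57 in CD8 (rank 1 of 4891) and 2.96 in Treg (rank 1 of 4793). PKM, which stands further down the same pathway, was 2034, 1752, 1721 and 2007 in the normal granulocyte libraries where GAPDH was 1537, 1838, 56 and 20.3. The other enzyme thus kept within a narrow range where GAPDH did not. In granulocytes, CD4 and CD8 each GAPDH level was seen in libraries with and without lung transcripts: in granulocytes it spanned 24.7 to 2255 in the 7 with them and 19.1 to 2178 in the 8 without. In Treg the 6 libraries with them lay at 4.31 to 16.8 and the 7 without at 18 to 1457, so that all 4 high Treg libraries were without lung transcripts; their part in the Treg levels was not tested. The last 500 bases of the GAPDH transcript match 89 other genes over at least 100 bases at 95% identity or more, 86 of them pseudogenes, so reads of this gene could be shared with copies. ENO1 had 4 such copies, MIF 5, BNIP3 2, LDHB 1 and PFKP 1, and the other 28 genes had 0. The part of these copies in the levels of GAPDH, ENO1, MIF, BNIP3, LDHB or PFKP was not tested. GAPDH did not pass in any stage comparison.

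In normal marrow granulocytes and CD4 cells differed in most of the genes that could be tested, in enzymes and hypoxia response genes alike. Of the 18 genes tested, 17 passed limma's test at an adjusted p under 0.05, 13 higher and 4 lower in granulocytes, where 67.6% of all tested genes passed. The median log2 difference of the 18 was 1.39, against -0.07 over all tested genes. A gene could enter this fit through granulocytes alone, as HK2 did, with means of 14.7 in granulocytes and 0.88 in CD4. The count and the median are therefore not independent of the filter, which also applied to all tested genes.

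At the entry of the pathway, HK3, the hexokinase of myeloid cells, was 446, 432, 446 and 449 scaled reads in granulocytes and 6.61, 5.76, 3.62 and 5.12 in CD4. The groups lay far apart, with a log2 difference of 5.6 ± 0.32 (SE; adjusted p = 4.53e-12). PFKFB4, which makes the allosteric activator of phosphofructokinase, was 203, 203, 202 and 245 against 2.2, 15.8, 6.33 and 7.39, a difference of 4.3 ± 0.31 (SE; adjusted p = 2.18e-11). ALDOA, the main aldolase of blood cells, was 758, 928, 876 and 903 against 246, 261, 229.8 and 213, a difference of 1.85 ± 0.15 (SE; adjusted p = 2.36e-11). All 3 were higher in every granulocyte library than in any CD4 library. At the exit, PKM, pyruvate kinase, was 1879 ± 165 against 247 ± 47.4 (mean ± SD, n = 4 each), a difference of 2.92 ± 0.18 (SE; adjusted p = 1.59e-13). LDHA, the muscle-type lactate dehydrogenase subunit that favours lactate formation, was 582 ± 51.1 against 219 ± 11.9, a difference of 1.39 ± 0.15 (SE; adjusted p = 5.36e-09). The heart-type subunit LDHB went the other way.
LDHB was 14.8, 5.25, 3.47 and 8.51 in granulocytes and 45.1, 31.7, 53.4 and 50.02 in CD4, a difference of -2.1 ± 0.25 (SE; adjusted p = 3.78e-08). MIF, a cytokine and known HIF target, was 12, 9.75, 5.21 and 14.1 against 99.1, 101, 114 and 134, a difference of -3.06 ± 0.2 (SE; adjusted p = 3.65e-13). DDIT4, a stress-induced inhibitor of mTORC1, was 2.78, 0.75, 2.17 and 1.85 against 54, 28.8, 32.6 and 30.1, a difference of -2.75 ± 0.25 (SE; adjusted p = 1.84e-10). These 3 were lower in every granulocyte library than in any CD4 library. Of the remaining genes that passed, HK1, HK2, PFKFB3, TPI1, GAPDH, VEGFA, BNIP3L and NDRG1 were higher in granulocytes, with log2 differences of 0.8 (BNIP3L) to 5.03 (GAPDH). PFKL, the liver-type phosphofructokinase, was lower by 1.16. GAPDH was higher in granulocytes although its 4 normal libraries ran from 20.3 to 1838, since the CD4 ones were all under 6.

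The T cell gates differed less from each other. Between CD8 and CD4 in normal marrow 2 of 18 passed, where 11.7% of all genes did. LDHB was 22.4, 14.9, 29.4 and 17.8 in CD8 against 45.1, 31.7, 53.4 and 50.02 in CD4, a difference of -0.98 ± 0.25 (SE; adjusted p = 0.00955), and MIF was 160.4, 169, 189.6 and 172 against 99.1, 101, 114 and 134, a difference of 0.62 ± 0.2 (SE; adjusted p = 0.0423). The groups did not overlap for either gene. With edgeR, with DESeq2, without the lung-positive libraries, with a pseudocount of 1, without the filter or with a replicate block, 1 gene of the set passed in each case. Between Treg and CD4, 6 of 18 passed, 5 higher and 1 lower, where 27% of all genes did, a share close to that of the 18.
HK3 was 39.8, 39.1, 52 and 84 in Treg, a difference of 2.58 ± 0.32 (SE; adjusted p = 2.84e-06) from CD4, and TPI1, triose phosphate isomerase, was 74.1, 50.6, 72.7 and 96 against 27.5, 23, 35.3 and 42.6, a difference of 1.1 ± 0.21 (SE; adjusted p = 0.000259). HK1, the widely expressed hexokinase, was 9.96, 8.97, 9.82 and 16.4 against 24.2, 21.6, 28.9 and 14.8, a difference of -0.78 ± 0.21 (SE; adjusted p = 0.00674). ALDOA (0.5), BNIP3L (1.01), a mitophagy receptor, and VEGFA (0.88), the angiogenic growth factor, were the others that passed. The HK1, BNIP3L and VEGFA groups overlapped. Granulocyte markers, 8 of 10 measured, summed to 3365 to 7875 in normal Treg and 263 to 1604 in normal CD4, beside the macrophage sums above; their part in these differences was not tested.

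**Figure D2:**
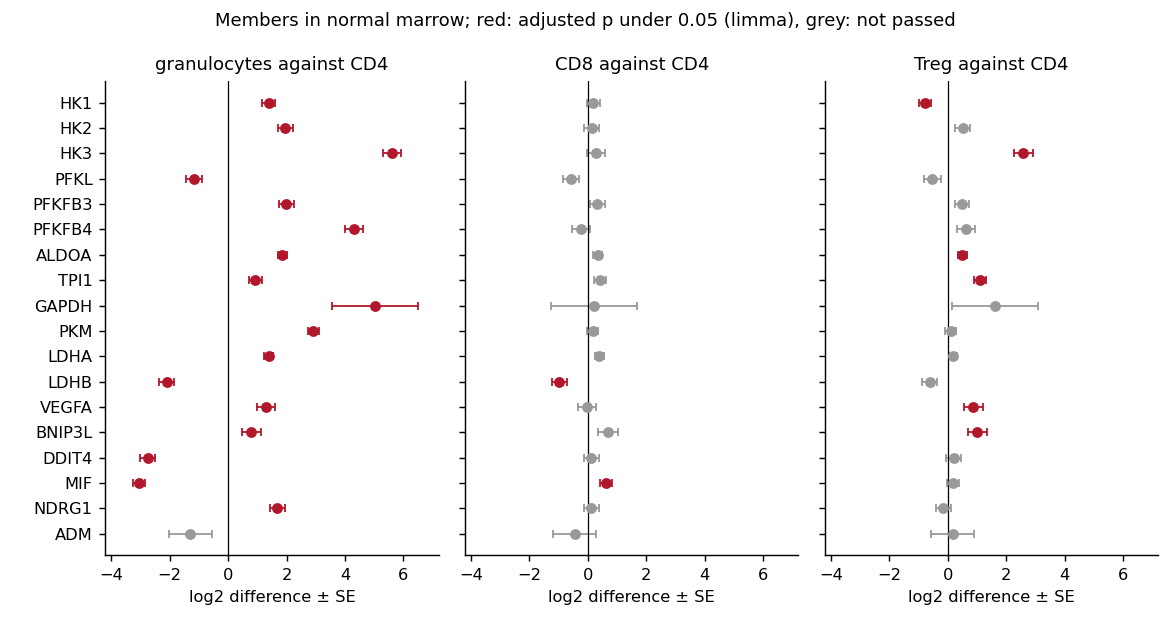
Log2 difference from CD4 in normal marrow, with its standard error, for the 18 genes tested in the fit of the 16 normal libraries, in granulocytes, CD8 and Treg; red points passed and grey points did not. In granulocytes 17 of 18 are red, with HK3 at 5.60 and MIF at -3.06, while 2 are red in CD8 and 6 in Treg.

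Granulocytes held 8 of the 14 calls that the 34 genes gave over the 16 stage comparisons. More genes of any kind passed in this gate. Over its comparisons 1.68 to 12.6% of all tested genes passed, against 0 to 3.79% in CD4, 0 to 4.85% in CD8 and 0.167 to 6.24% in Treg. Against normal marrow MIF and LDHA were higher in early marrow and in the late core, HK2 and NDRG1 were lower at both late sites, and no other gene of the set passed. In early marrow 2 of 20 tested genes passed, both higher, where 4.78% of all genes passed in either direction. MIF (chr10:75859353-75860240, minus strand) was 12, 9.75, 5.21 and 14.1 scaled reads in normal and 39.7, 32.4, 21 and 34 in early granulocytes. The groups did not overlap, and the log2 difference was 1.34 ± 0.3 (SE; adjusted p = 0.0128). LDHA (chr7:46841475-46855627, plus strand) was 512, 635, 593 and 589 in normal and 887, 912, 883 and 889.8 in early granulocytes. The early libraries lay within 30 scaled reads of each other and above all normal ones, with a difference of 0.62 ± 0.16 (SE; adjusted p = 0.0344). The MIF call was lost without normal library 3 (adjusted p = 0.0552), and the LDHA call without any of the 8 libraries compared (adjusted p up to 0.124). Without lung-positive libraries, with 2 libraries left on each side, the differences were 1.53 for MIF (adjusted p = 0.0603) and 0.61 for LDHA (adjusted p = 0.105), near those of all libraries.

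In late peripheral marrow 2 of 20 passed, both lower, where 8.14% of all genes did. NDRG1 (chr15:66929318-66969640, minus strand), a hypoxia- and differentiation-linked gene, was 34.3, 29.2, 27.3 and 44 in normal and 10.4, 2.92, 7.95 and 13.4 in late peripheral granulocytes. HK2 (chr6:82725025-82774454, minus strand), the inducible hexokinase and a known HIF target, was 14.8, 13.5, 14.8 and 15.5 in normal and 3.16, 4.01, 6.41 and 9.55 in late peripheral granulocytes. All late peripheral libraries lay below all normal ones for each gene. HK2 reached the filter's 10 scaled reads in every normal library and in no late peripheral or core one. It entered the test through the group where it is high, so its late calls are not independent of the filter. The difference was -1.63 ± 0.29 (SE; adjusted p = 0.00206) for NDRG1 and -0.97 ± 0.26 (SE; adjusted p = 0.0293) for HK2. The NDRG1 call held on omission of each library. The HK2 call was lost without any normal library and without late peripheral library 1, 2 or 3 (adjusted p up to 0.0875), and without lung-positive libraries, at -0.88 (adjusted p = 0.0529).

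In the late core 4 of 20 passed against normal marrow, 2 higher and 2 lower, where 12.6% of all genes did. MIF reached 54.6, 35.2 and 75.8 in the core, a difference of 2.04 ± 0.32 (SE; adjusted p = 0.000437) from normal. LDHA was 1044, 875 and 814, a difference of 0.64 ± 0.18 (SE; adjusted p = 0.0247). HK2 was 3.96, 5.13 and 1.55, a difference of -1.34 ± 0.29 (SE; adjusted p = 0.00495), and NDRG1 was 15, 9.23 and 9.28, a difference of -1.31 ± 0.31 (SE; adjusted p = 0.0103). The core libraries overlapped normal marrow for none of the 4 genes. The MIF, HK2 and NDRG1 calls held on omission of each library, and the LDHA call was lost without normal library 1, 3 or 4 or core library 1 (adjusted p up to 0.0692). Without lung-positive libraries, with 1 core library left, NDRG1 was at -1.03 (adjusted p = 0.173), and the other 3 kept their calls.

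Between the core and peripheral marrow of the late stage, 0 of 20 passed with limma, where 1.68% of all genes did. An unadjusted p under 0.05 was reached by 1 of the 20 and by 12.3% of all genes, and edgeR called 0 and DESeq2 1. The 2 genes with the smallest p were MIF and EGLN1. MIF was 13.1, 18.6, 16.7 and 37 in peripheral and 54.6, 35.2 and 75.8 in core libraries, a difference of 1.25 ± 0.32 (SE; adjusted p = 0.0604). The groups overlapped by 1 library, the peripheral one at 37.0. With the number in the file name, taken as the mouse, as a block the MIF difference was 1.51 (adjusted p = 0.00583), and 1 gene passed. The values do not show that libraries of 1 number share a mouse. In the fit without a block MIF passed without early library 3, peripheral library 4 or core library 2. EGLN1, the main oxygen-sensing prolyl hydroxylase, was 9.02, 11.3, 11.8 and 12.6 in peripheral and 6.33, 9.23 and 4.64 in core marrow, a difference of -0.52 ± 0.26 (SE; adjusted p = 0.446).

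Markers of the gate itself and of other cells also moved. Granulocyte markers, 8 of 10 measured, summed to 103561 to 204023 in normal and 84574 to 205700 in early granulocytes. They summed to 45442 to 100558 in late peripheral granulocytes, below all normal libraries, and to 73939 to 165172 in core ones. Macrophage markers summed to 21.5 to 65.4 in peripheral and 215 to 286 in core granulocytes, with CD5L at 0 in the core, and C1QA was 1.91 to 4.96 against 82 to 109. T cell markers, 6 of 8 measured, summed to 237 to 301 in normal, 68 to 91.9 in early, 37.5 to 87.4 in late peripheral and 63.4 to 101 in core granulocytes. Mammary tumour markers summed to 0 to 4.51 in peripheral and 9.49 to 19.8 in core granulocytes. The part of these cells, or of the fall in granulocyte markers, in the granulocyte values was not tested.

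**Figure D3:**
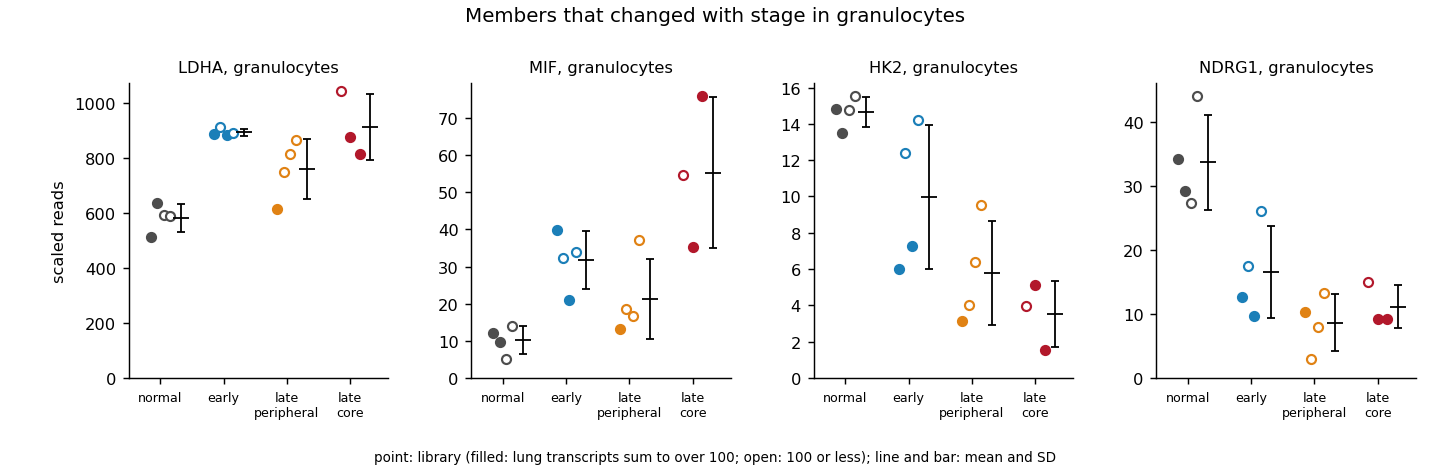
LDHA, MIF, HK2 and NDRG1 in scaled reads in the 15 granulocyte libraries by marrow stage; points are libraries, filled where lung transcripts sum to over 100, and the black line and bar give the mean and SD. MIF rises from at most 14.1 in normal marrow to at least 35.2 in the core, LDHA from at most 635 to at least 814, while HK2 and NDRG1 lie highest in normal marrow.

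The other genes of the set tested in granulocytes did not pass against normal marrow. TPI1 was 56.5, 70.5, 66.4 and 61.8 in normal, 137, 113, 84.2 and 114 in early and 115, 80.4 and 128 in core libraries, with differences of 0.76 ± 0.23 (SE; adjusted p = 0.0717) and 0.7 ± 0.25 (SE; adjusted p = 0.0750), and neither group overlapped normal. PKM was 2034, 1752, 1721 and 2007 in normal and 2811, 2176, 2278 and 2309.7 in early libraries, a difference of 0.35 ± 0.21 (SE; adjusted p = 0.497). ALDOA spread widely within the late groups, at 529.6, 316, 818 and 1021 in peripheral and 1111, 304 and 1064 in core marrow. BNIP3, a mitophagy receptor, was 7.41, 5.25, 8.25 and 6.29 in normal and 11.4, 18.8, 9.71 and 16.4 in early libraries, a difference of 0.72 ± 0.29 (SE; adjusted p = 0.206). NDRG1 was already at 12.6, 17.5, 9.71 and 26.2 in early marrow, a difference of -0.92 ± 0.29 (SE; adjusted p = 0.0815), below every normal library.

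CD4 cells gave 1 call. Against normal marrow 0 of 17 genes passed in early marrow, where 0% of all genes did, and 0 in late peripheral marrow, where 0% did. In each of these, 3 of 17 had an unadjusted p under 0.05, where 8.62% of all genes did in early and 9.18% in late peripheral marrow. With edgeR 0 were called in each, and with DESeq2 0 in early and 1 in late peripheral marrow. HK3 and EGLN1 had the smallest p in early marrow. HK3 was 6.61, 5.76, 3.62 and 5.12 in normal and 18.5, 21.8, 8.04 and 14 in early CD4, a difference of 1.03 ± 0.36 (SE; adjusted p = 0.429), and EGLN1 was 3.3, 7.2, 2.71 and 6.25 and 18.5, 9.92, 21.4 and 7.38, a difference of 1.0 ± 0.37 (SE; adjusted p = 0.434). The early libraries of both genes lay above all normal ones. Granulocyte markers, in a gate that should lack HK3-rich myeloid cells, summed to 263 to 1604 in normal and 1033 to 4058 in early CD4, and their part in the HK3 values was not tested. In late peripheral marrow PKM was 349, 463, 329.6 and 336, a difference of 0.58 ± 0.23 (SE; adjusted p = 0.443) from normal, and HK3 was 16.7, 10.3, 13.7 and 9.27, a difference of 0.82 ± 0.36 (SE; adjusted p = 0.520).

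In the CD4 core NDRG1 was the 1 gene of 17 that passed against peripheral marrow, where 2.01% of all genes did. It was 2.73, 5.14, 1.96 and 5.15 in peripheral and 20.8, 21.4 and 17.8 in core CD4 cells. Every core library was above every peripheral one, and the log2 difference was 1.65 ± 0.38 (SE; adjusted p = 0.0214). With the number taken as the mouse as a block the adjusted p was 0.0916, at 1.54, and 0 genes passed. The call was lost without peripheral library 1 or 3 or any core library (adjusted p up to 0.128), and without lung-positive libraries, where 1 core library is left and the difference was 1.46 (adjusted p = 1.00). T cell markers summed to 247 to 642 in peripheral and 732 to 906 in core CD4, and their part was not tested.

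Core against normal CD4 gave 0 of 17 with limma, where 3.79% of all genes passed. An unadjusted p under 0.05 was reached by 6 of the 17 and by 16.9% of all genes, and edgeR called 0 and DESeq2 1. BNIP3L was 4.4, 1.44, 1.81 and 11.9 in normal and 11.6, 19.4 and 14.6 in core cells, a difference of 1.23 ± 0.41 (SE; adjusted p = 0.102), and the groups overlapped by 1 library. TPI1 was 27.5, 23, 35.3 and 42.6 and 78.7, 49.7 and 110.1, a difference of 1.17 ± 0.39 (SE; adjusted p = 0.102). LDHA was 210.3, 210.2, 235 and 222 and 382, 365 and 389, a difference of 0.78 ± 0.26 (SE; adjusted p = 0.107). For TPI1 and LDHA every core library lay above every normal one, though neither passed.

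CD8 cells also gave calls in the core alone, for TPI1 (chr6:124810586-124814296, minus strand). Early against normal CD8 gave 0 of 19 with limma, where 4.85% of all genes passed. An unadjusted p under 0.05 was reached by 1 of the 19 and by 21.2% of all genes, and edgeR called 0 and DESeq2 2. ADM, the vasodilator peptide adrenomedullin, was 0.831, 16.2, 0 and 18.5 in normal and at 0 in all 4 early libraries, with groups that overlap at 0. Its difference was -1.27 ± 0.52 (SE; adjusted p = 0.163). The 2 high normal libraries are the ones with lung transcripts, and without them the difference was -0.14. MIF was 160.4, 169, 189.6 and 172 in normal and 137, 99.3, 144 and 95.1 in early CD8, a difference of -0.55 ± 0.27 (SE; adjusted p = 0.249), with every early library below every normal one. Late peripheral against normal CD8 gave 0 of 19, where 0% of all genes passed. An unadjusted p under 0.05 was reached by 0 of the 19 and by 3.48% of all genes, and edgeR and DESeq2 called 0. DDIT4 was 33.2, 40.8, 37.6 and 43.1 in normal and 83.6 and 72.8 in peripheral CD8, a difference of 0.95 ± 0.47 (SE; adjusted p = 1.00), and ADM, at 0 in both peripheral libraries, had an adjusted p of 1.00.

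TPI1 was 23.1 and 40.7 in the 2 peripheral and 216 and 93.3 in the 2 core CD8 libraries, beside 64.8, 41.4, 32.7 and 38.3 in normal and 34.3, 30.7, 33.5 and 31.7 in early cells. The core libraries lay above all 10 others. It was the 1 gene of 19 that passed against peripheral marrow, where 1.27% of all genes did, and against normal marrow, where 1.19% did. The difference was 2.07 ± 0.42 (SE; adjusted p = 0.0219) from peripheral and 1.64 ± 0.37 (SE; adjusted p = 0.0301) from normal marrow. Against peripheral marrow edgeR called 2 genes of the set and DESeq2 3, and against normal marrow also 2 and 3. The first call was lost without peripheral library 1 or core library 1 (difference 1.48 to 2.66 over the omissions, adjusted p up to 0.382), with the remaining library assumed to vary like the other groups. The second was lost without normal library 2, 3 or 4 or core library 1 (adjusted p up to 0.943). Both core libraries held lung transcripts and the peripheral ones did not, so no value without them exists. Granulocyte markers summed to 2174 to 3607 in peripheral and 188 to 1207 in core CD8, and their part was not tested.

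Other genes of the set, the enzymes ALDOA and LDHA and the hypoxia response gene NDRG1 among them, had an unadjusted p under 0.05 in the CD8 core against peripheral marrow without passing. ALDOA was 183 and 200.3 in peripheral and 584 and 359.7 in core cells, a difference of 1.24 ± 0.37 (SE; adjusted p = 0.106). LDHA was 226 and 282 and 639 and 407, a difference of 1.0 ± 0.33 (SE; adjusted p = 0.145). NDRG1 was 5.14 and 4.69 and 33.2 and 19.4, a difference of 1.73 ± 0.49 (SE; adjusted p = 0.0904). In each of the 3 both core libraries were the higher ones. The median difference of the 19 genes was 0.62, against 0.01 over all tested genes, and 14 of the 19 were positive.

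In the Treg gate PKM rose at both late sites, and HK3 fell in the core, against normal marrow. Early against normal Treg gave 0 of 19 with limma, where 0.167% of all genes passed. An unadjusted p under 0.05 was reached by 3 of the 19 and by 7.32% of all genes, and edgeR and DESeq2 called 0. DDIT4 was 74.1, 39.1, 33.4 and 28.4 in normal and 16.5, 16.4 and 8.9 in early Treg, a difference of -1.36 ± 0.34 (SE; adjusted p = 0.148). All early libraries lay below all normal ones. PKM was 361, 449 and 397 in early Treg, a difference of 0.61 ± 0.24 (SE; adjusted p = 0.587) from normal.

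PKM (chr9:59656368-59679375, plus strand) was 235, 215, 334 and 279 in normal, 499, 724 and 362 in late peripheral and 568, 634 and 398 in core Treg. Neither late group overlapped normal marrow. In late peripheral marrow it was the 1 gene of 19 that passed, where 2.52% of all genes did, at 0.94 ± 0.24 (SE; adjusted p = 0.0435). In the core 2 of 19 passed, where 6.24% of all genes did: PKM at 0.99 ± 0.24 (SE; adjusted p = 0.0185) and HK3 at -1.45 ± 0.4 (SE; adjusted p = 0.0368). HK3 (chr13:55005985-55021385, minus strand) was 39.8, 39.1, 52 and 84 in normal and 13.5, 16.3 and 19.5 in core Treg, without overlap. The peripheral PKM call was lost without normal library 1, 2 or 4, any early library, or peripheral library 1 or 2 (adjusted p up to 0.278), and the core one without normal library 1 or 2 or core library 2 (adjusted p up to 0.106). The HK3 call was lost without any of the 7 libraries compared (adjusted p up to 0.148). Without lung-positive libraries, which leaves 1 normal Treg library, PKM was at 0.84 in late peripheral and 0.58 in core marrow (adjusted p = 1.00 and 0.769) and HK3 at -1.36 (adjusted p = 0.471).

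Macrophage markers summed to 6788 to 7681 in normal, 1348 to 5747 in late peripheral and 213 to 2543 in core Treg, and granulocyte markers to 3365 to 7875, 4538 to 20704 and 2869.7 to 5465, with CXCR2 at 0 in the core. T cell markers summed to 144 to 288, 62 to 440.0 and 438 to 855 in the same order, and regulatory T cell markers to 8.85 to 11.8, 8.02 to 21.6 and 52.3 to 83.8. The part of these cells in the PKM and HK3 values was not tested. Core against peripheral Treg gave 0 of 19 with limma, where 1.52% of all genes passed. An unadjusted p under 0.05 was reached by 1 of the 19 and by 16.1% of all genes, and edgeR and DESeq2 called 0. PDK3, which inactivates pyruvate dehydrogenase, was 4.01, 2.21 and 0 in peripheral and 10.1, 13.1 and 13.5 in core Treg, a difference of 1.47 ± 0.53 (SE; adjusted p = 0.176), and VEGFA was 1.34, 11.1 and 0 and 71.8, 13.1 and 1.5, a difference of 1.49 ± 0.8 (SE; adjusted p = 0.388). The PDK3 groups did not overlap, and the VEGFA groups did. The core library at 71.8 VEGFA holds lung transcripts. Without lung-positive libraries the difference was 0.11 for VEGFA and 1.29 for PDK3.

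**Figure D4:**
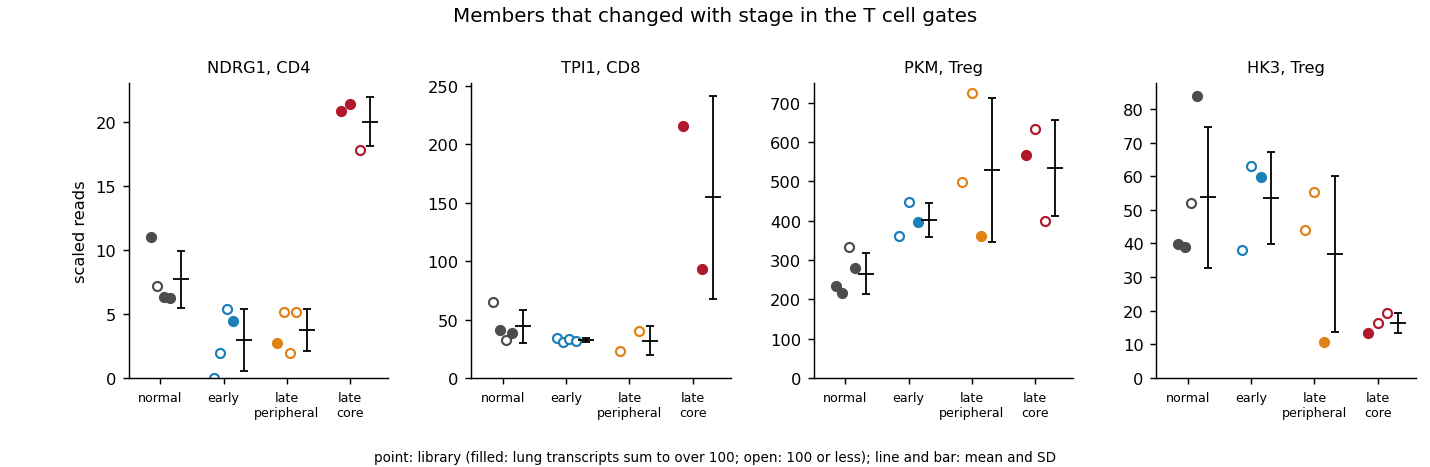
The genes that passed in the T cell gates, in scaled reads by marrow stage: NDRG1 in CD4, TPI1 in CD8, PKM and HK3 in Treg; points are libraries, filled where lung transcripts sum to over 100, and the black line and bar give the mean and SD. The 3 CD4 core libraries lie at 17.8 to 21.4 NDRG1, above all other CD4 libraries, and the 2 CD8 core libraries at 93.3 and 216 TPI1.

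Whether a stage difference itself differed between gates was tested in 1 model of all 55 libraries, with 25 of the 34 genes. For core against peripheral marrow 0 passed between granulocytes and CD4, CD8 and CD4, or Treg and CD4, where 0.0172%, 0.12% and 0% of all genes did. For early against normal marrow 0 passed between granulocytes and CD4, where 0.309% of all genes did. In that order 2, 3, 1 and 3 of the 25 genes had an unadjusted p under 0.05, where 8.01, 5.16, 6.48 and 7.27% of all genes did. With edgeR and DESeq2 0 were called in each. The largest of these between granulocytes and CD4 in the core were MIF at 1.33 ± 0.49 (SE; adjusted p = 0.476) and NDRG1 at -1.33 ± 0.61 (SE; adjusted p = 0.602). NDRG1 had risen in the CD4 core while in granulocytes it was 10.4, 2.92, 7.95 and 13.4 in peripheral and 15, 9.23 and 9.28 in core marrow. Between CD8 and CD4 they were PGK1, phosphoglycerate kinase, at 1.58 ± 0.58 (SE; adjusted p = 0.624) and TPI1 at 1.37 ± 0.55 (SE; adjusted p = 0.753). PGK1 was 1.29 and 0.782 in peripheral and 15.8 and 7.13 in core CD8, and 5.13, 4.79, 0 and 3.09 and 3.47, 1.94 and 3.24 in CD4. Between Treg and CD4 BNIP3 stood at 1.24 ± 0.52 (SE; adjusted p = 0.645), and in the early comparison HK2 at -1.12 ± 0.46 (SE; adjusted p = 0.509) and PFKL at 1.18 ± 0.51 (SE; adjusted p = 0.567). The calls described above for single gates are therefore not shown to be particular to them.

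Genes around the pathway were followed in 7 lists: glucose and lactate transport, other glycolytic enzymes, pyruvate and lactate fate, the pentose phosphate pathway, glycogen, the HIF machinery and other hypoxia-induced genes. The last list gave most calls between stages, and it was also the largest, with 36 genes against 8 to 16 in the others. In granulocytes 15 of its 36 genes were tested, and 2 were higher and 1 lower in early marrow, 2 and 1 in late peripheral marrow and 6 and 1 in the core, against normal marrow, where 4.78%, 8.14% and 12.6% of all genes passed. SLC2A1 (chr4:119108711-119137983, plus strand), the glucose transporter GLUT1, is in this list and the transport list. It was 34.3, 39.7, 47.3 and 49.2 in normal, 117, 157, 147 and 174 in early, 64, 143, 132 and 168 in late peripheral and 269, 145 and 224 in core granulocytes. Every early and late library lay above every normal one. The differences were 1.71 ± 0.26 (SE; adjusted p = 0.00106), 1.42 ± 0.26 (SE; adjusted p = 0.00283) and 2.18 ± 0.28 (SE; adjusted p = 6.77e-05), and these calls held on omission of each library. The other 4 transport genes tested in granulocytes did not pass.

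NOS2, the inducible nitric oxide synthase, was 0, 1.5, 4.34 and 5.55 in normal and 59.6, 52.9, 56.7 and 41.8 in early granulocytes, and 22.1, 31, 135 and 69.5 and 108, 38 and 105 in late peripheral and core ones. Its differences from normal were 3.12, 3.09 and 3.63 (adjusted p = 0.00112, 0.000776 and 0.000212). CXCR4, the chemokine receptor that retains neutrophils in marrow, was 89.8, 113, 118 and 119.8 in normal, 22.9, 44.5, 36.4 and 45.4 in early and 32.5, 16.8, 19.2 and 31.3 in late peripheral granulocytes, with differences of -1.5 and -2.02 (adjusted p = 0.00206 and 0.000173). The early and late libraries listed did not overlap normal ones for either gene.
Of the other lists 5 gave 1 gene each that fell in granulocytes. ADPGK, an ADP-dependent glucokinase, was 1269.8, 1122, 1472 and 1516 in normal and 679.8, 393, 678 and 918 in late peripheral granulocytes, a difference of -1.06 ± 0.28 (SE; adjusted p = 0.0238), and 859.9, 356 and 523 in the core, a difference of -1.29 ± 0.3 (SE; adjusted p = 0.00853). MPC2, a subunit of the mitochondrial pyruvate carrier, was 121, 173, 129.8 and 168 in normal, 75.7, 60.2, 72.6 and 100.4 in late peripheral and 60.9, 61.5 and 57.2 in core granulocytes, with differences of -0.91 ± 0.18 (SE; adjusted p = 0.00469) and -1.24 ± 0.2 (SE; adjusted p = 0.000455). Late libraries lay below all normal ones for each gene. RPIA, of the pentose phosphate pathway, differed by -1.03 ± 0.27 (SE; adjusted p = 0.0242) in late peripheral and -1.0 ± 0.29 (SE; adjusted p = 0.0316) in core marrow. GBE1, the glycogen branching enzyme, differed by -1.24 ± 0.29 (SE; adjusted p = 0.00897) in the core, and CITED2, which competes with HIF for its coactivator, by -1.09 ± 0.24 (SE; adjusted p = 0.0128) in early and -1.26 ± 0.26 (SE; adjusted p = 0.00392) in core marrow. These 5 genes were the only ones to pass in granulocyte stage comparisons among those tested of 5 lists, which were 1 of 16 other glycolytic enzymes, 4 of 15 of pyruvate and lactate fate, 4 of 8 of the pentose phosphate pathway, 7 of 10 of glycogen and 6 of 16 of the HIF machinery. The peripheral ADPGK call was lost without normal library 1, 3 or 4 or peripheral library 2 or 3 (adjusted p up to 0.0939), and the RPIA calls without 4 libraries each (adjusted p up to 0.0806 and 0.144): normal library 1 or 2 or peripheral library 2 or 3 in the first, and normal library 1, 2 or 3 or core library 2 in the second. Without lung-positive libraries, which leaves 1 core library, the core calls of ADPGK and RPIA were lost, at -0.79 (adjusted p = 0.203) and -0.47 (adjusted p = 0.303). The GBE1 call was lost without core library 3 (adjusted p = 0.0516) and the early CITED2 call without normal library 1 (adjusted p = 0.0538).

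Between the core and peripheral marrow every gate had genes of the list of other hypoxia-induced genes that passed. The list was chosen with earlier results of these data known, so these calls are no independent test of hypoxia. Of the 34 genes, 0 of 20 passed in granulocytes, 1 of 17 in CD4, 1 of 19 in CD8 and 0 of 19 in Treg in these comparisons. Of the tested genes of the hypoxia-induced list, granulocytes had 3 of 15 that passed, CD4 4 of 16, CD8 2 of 20 and Treg 4 of 20. All were higher, where 1.68%, 2.01%, 1.27% and 1.52% of all tested genes passed in either direction. The list's median difference was 0.48, 0.94, 0.73 and 0.67 in that order, against -0.06, 0.01, 0.01 and 0.01 over all tested genes. HILPDA (chr6:29272488-29275446, plus strand), a lipid droplet protein, was 4.96, 4.38, 0.513 and 0.382 in peripheral and 68, 62.2 and 35.6 in core granulocytes, a difference of 3.21 ± 0.38 (SE; adjusted p = 2.73e-05). In CD4 it was 5.81, 11, 3.92 and 1.03 and 39.4, 38.1 and 30.8, a difference of 2.19 ± 0.41 (SE; adjusted p = 0.00548), and in CD8 5.14 and 6.26 and 157 and 88.4, a difference of 3.65 ± 0.6 (SE; adjusted p = 0.00335). Core libraries lay far above peripheral ones in these 3 gates. In granulocytes and CD8 HILPDA reached the filter's 10 scaled reads in every core and no peripheral library. In Treg it was 9.36, 0 and 4.31 and 90.9, 78.5 and 7.48, with 1 core library inside the peripheral range.
BHLHE40 (chr6:108660629-108666925, plus strand), a repressor induced by hypoxia and by activation, passed in all 4 gates. It was 14.4, 11.7, 10.3 and 9.93 in peripheral and 22.9, 38 and 21.7 in core granulocytes, a difference of 0.99 ± 0.22 (SE; adjusted p = 0.0243), and 7.18, 5.48, 9.81 and 6.18 and 55.6, 50.1 and 66.4 in CD4, a difference of 2.46 ± 0.31 (SE; adjusted p = 0.000212). It was 11.6 and 6.26 and 139.5 and 113 in CD8, a difference of 3.36 ± 0.49 (SE; adjusted p = 0.00109), and 8.02, 4.43 and 19.4 and 69.6, 32.7 and 58.4 in Treg, a difference of 2.05 ± 0.46 (SE; adjusted p = 0.0301). No core library overlapped peripheral marrow in any gate. With the number taken as the mouse as a block the granulocyte value was 0.94 (adjusted p = 0.135).
PPP1R15A, a stress-induced phosphatase subunit, was 14.4, 2.55, 11.8 and 9.17 in peripheral and 116, 50.6 and 129.9 in core granulocytes, a difference of 2.93 ± 0.55 (SE; adjusted p = 0.00788), and 34.9, 17.8, 53 and 24.7 and 155, 174 and 129.5 in CD4, a difference of 2.18 ± 0.39 (SE; adjusted p = 0.00482). In Treg SLC2A1 was 12, 11.1 and 19.4 in peripheral and 86.4, 91.5 and 32.9 in core marrow, a difference of 1.94 ± 0.43 (SE; adjusted p = 0.0269), and CXCR4 was 20.1, 26.6 and 38.8 and 67.3, 118 and 77.8, a difference of 1.5 ± 0.31 (SE; adjusted p = 0.0209). None of these groups overlapped.
Several of these calls rested on single libraries. They were lost for PPP1R15A in granulocytes without core library 1 or 3 (adjusted p up to 0.0632), for BHLHE40 there without peripheral library 2, 3 or 4 or core library 2 (up to 0.0803) and for HILPDA in CD4 without core library 2 (0.0566). In CD8 HILPDA was lost without peripheral library 1 or core library 1 (up to 0.147) and BHLHE40 without core library 1 (0.0751). In Treg SLC2A1 was lost without peripheral library 1 or 2 or core library 1 or 2 (up to 0.142), CXCR4 without peripheral library 1 or 2 or core library 2 (up to 0.144) and BHLHE40 without peripheral library 1 or 2 or core library 1 or 3 (up to 0.165). Without lung-positive libraries HILPDA kept its granulocyte call (adjusted p = 0.000228), while the CD4 calls, with 1 core library left, were lost at differences close to those above, 2.05 for HILPDA, 2.68 for BHLHE40 and 2.02 for PPP1R15A (adjusted p = 1.00, 0.246 and 0.770). The SLC2A1 difference in Treg was then 1.93 (adjusted p = 0.0995), with 2 libraries on each side. Regulatory T cell markers summed to 13.7 to 26.8 in peripheral and 61.8 to 99.6 in core CD4, 7.82 to 12.9 and 58.8 to 93.5 in CD8 and 8.02 to 21.6 and 52.3 to 83.8 in Treg. Mammary tumour markers summed to 5.89 to 8.56 and 11.6 to 33.8 in CD4 and 0.782 to 2.57 and 8.69 to 19.97 in CD8. The part of these cells in the core values was not tested.

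**Figure D5:**
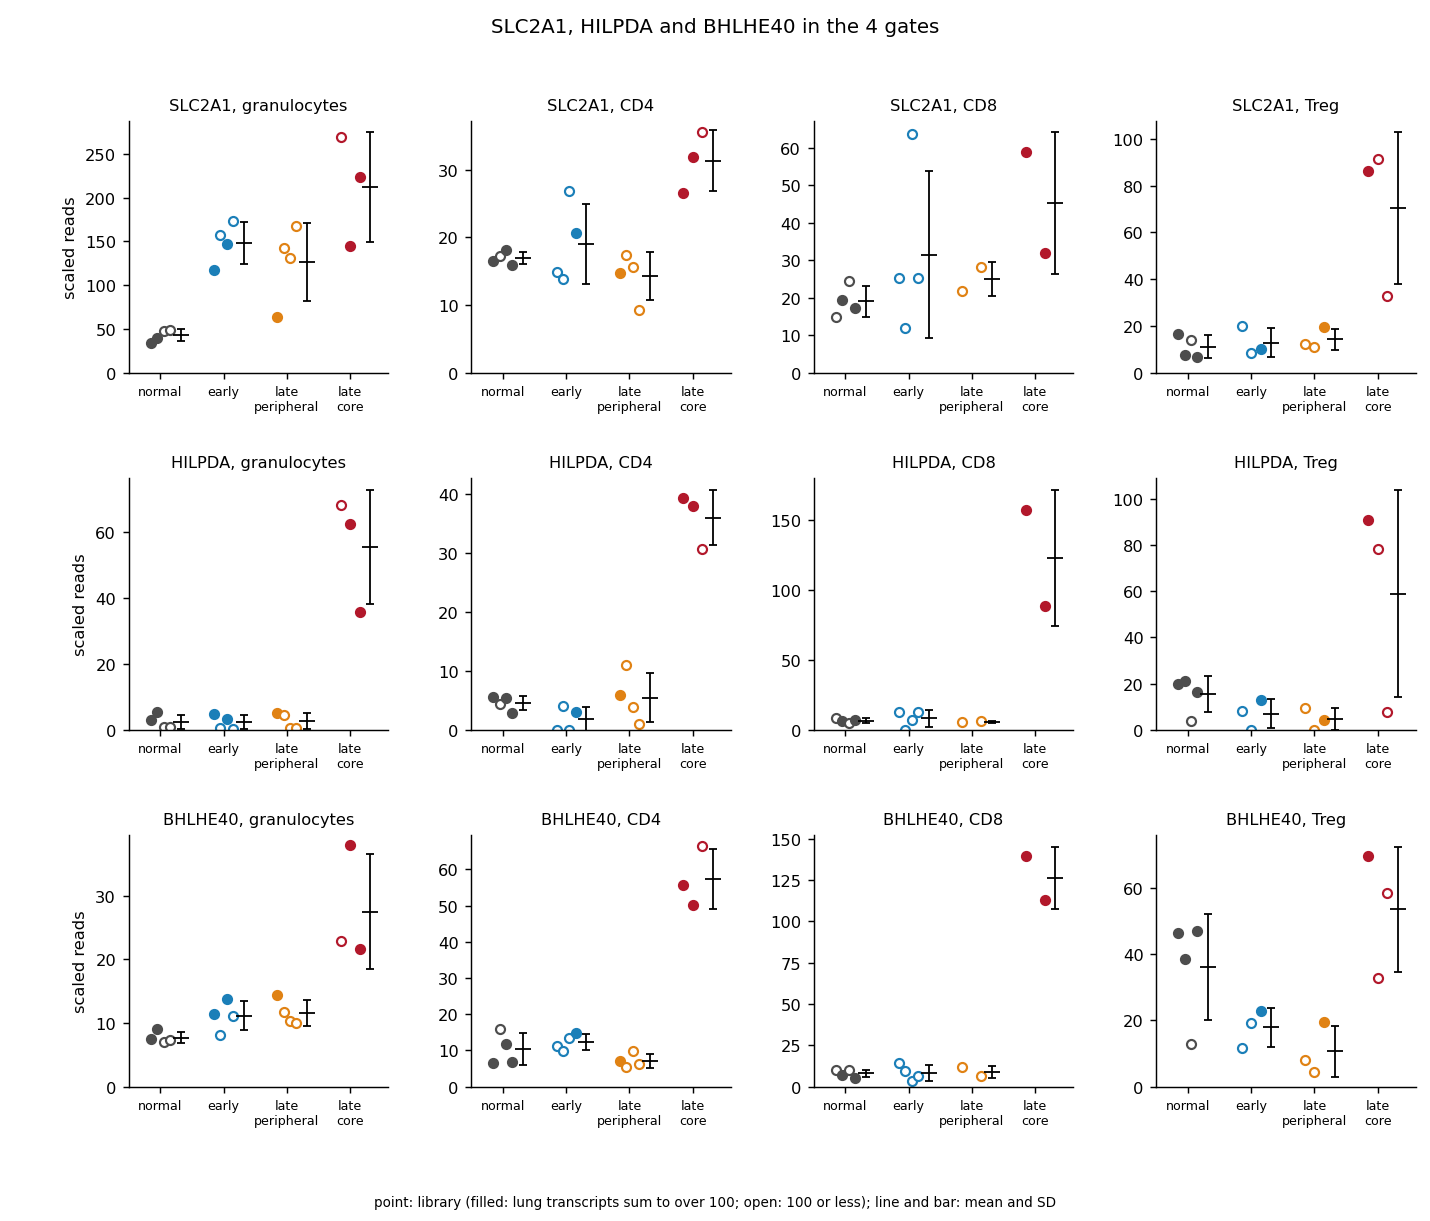
SLC2A1, HILPDA and BHLHE40 in scaled reads in granulocytes, CD4, CD8 and Treg by marrow stage; points are libraries, filled where lung transcripts sum to over 100, and the black line and bar give the mean and SD. HILPDA lies at 35.6 to 68.0 in core granulocytes against at most 4.96 in peripheral ones, and BHLHE40 in the core lies above peripheral marrow in every gate.

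Outside the last list, T cell gates gave few calls. In CD4, PGLS, an enzyme of the oxidative pentose phosphate pathway, was 858, 599, 593 and 509 in normal, 409, 349, 636 and 660.4 in late peripheral and 256, 143 and 282 in core cells. It fell by 1.17 against peripheral (adjusted p = 0.0447) and by 1.51 against normal marrow (adjusted p = 0.00682). The core libraries were the lowest in each case, and the second call was lost without core library 2 (adjusted p = 0.0917), the first without any of 9 libraries: normal 2, 3 or 4, early 2, peripheral 1, 3 or 4 and core 1 or 2 (adjusted p up to 0.352). CITED2 rose in the CD4 core, from 25.3, 14.4, 24.4 and 29.6 in normal to 69.5, 68.8 and 61.5, a difference of 1.4 ± 0.32 (SE; adjusted p = 0.0150), where in granulocytes it fell; whether the 2 gates differ was not tested. That call was lost without normal library 2 or core library 1 or 2 (adjusted p up to 0.0944). Without lung-positive libraries, with 1 normal and 1 core CD4 library left, PGLS was at -0.9 and -1.08 and CITED2 at 1.83 (adjusted p = 1.00, 0.997 and 0.997). In early CD8 ADPGK was 48.2, 29.1, 45.8 and 28.1 in normal and 54.1, 82.7, 187 and 82.4 in early cells, a difference of 1.23 ± 0.34 (SE; adjusted p = 0.0409), lost without any normal library or early library 2, 3 or 4 (adjusted p up to 0.142), and at 0.91 without lung-positive libraries (adjusted p = 0.504). Granulocyte markers, whose gate is rich in ADPGK, summed to 412 to 3538 in normal and 4028 to 33006 in early CD8, and their part was not tested.

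In the Treg gate SLC16A3, the lactate exporter MCT4, was 11.1, 7.69, 10.8 and 9.81 in normal and 86.4, 36 and 29.9 in core libraries, a difference of 1.85 ± 0.37 (SE; adjusted p = 0.00423), and SLC2A1 differed from normal by 2.23 ± 0.4 (SE; adjusted p = 0.00181). Core libraries lay above normal ones for both, and each call held on omission of each library. Without lung-positive libraries, which leaves 1 normal and 2 core Treg libraries, both calls were lost, at 1.31 (adjusted p = 0.524) and 1.74 (adjusted p = 0.476). HMOX1, heme oxygenase, abundant in marrow macrophages, went the other way, from 969, 1046, 761 and 768 in normal to 92.3, 184 and 86.3 in late peripheral and 176, 55.6 and 12 in core libraries. It fell by 2.9 (adjusted p = 0.0475) and 3.99 (adjusted p = 0.00532). The macrophage sums of these groups are given above, at 1348 in 1 late peripheral library and 5502 and 5747 in the others, and their part was not tested. PLOD1, a collagen lysyl hydroxylase, was 64.2, 48.7, 49.1 and 63.2 in normal and 34.8, 8.86 and 15.1 in late peripheral Treg, a difference of -1.5 ± 0.39 (SE; adjusted p = 0.0435). The peripheral HMOX1 and PLOD1 calls were each lost without 8 or more of the 13 Treg libraries (adjusted p up to 0.149 and 0.252), among them normal libraries 1, 2 and 4, every early library and peripheral libraries 2 and 3. The HMOX1 call was also lost without normal library 3, peripheral library 1 or core library 2. Without lung-positive libraries they stood at -2.51 (adjusted p = 0.286) and -1.25 (adjusted p = 1.00).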

How the data were processed

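RNA was taken with the EZ-RNA kit and made into MARS-seq libraries, per the labels' protocols. Reads were processed with fastp 0.20.0, STAR 2.6.0c and DESeq2 1.30.1 on GRCm38 (mm10), per the submitters' processing notes. The counting step and the use of molecular tags are not given in the sources used here. Each deposited value is a signal, reads divided by 1 size factor per library: with 1 read as the unit, 100% of values are whole numbers to within 0.01. The factors were computed over all 55 libraries together, since their product with the value of 1 read was 0.952 to 1.01 throughout. Rows without a symbol held at most 0.0124% of a library. The files pair human Ensembl IDs with capital symbols, and positions were looked up for the mouse gene with the same symbol in GENCODE M21 (GRCm38). Copies were searched with blastn 2.17.0.

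Differences were tested with limma 3.58.1 (R 4.3.3; mean-variance trend, robust) on log2(value + 4), a scale that understates changes of low genes. There was 1 fit per gate, 1 over the 16 normal libraries and 1 over all 55, keeping genes that reached 10 in at least the number of libraries of the smallest group (4 in fits over gates). A gene high in 1 group alone could enter through that group, so its call is not independent of this filter. A gene passed when its p, adjusted by Benjamini-Hochberg over all tested genes, was under 0.05. The method was tested on simulated data. Alternatives were edgeR 4.0.16 and DESeq2 1.42.0 on recovered reads, a pseudocount of 1, no filter, libraries without lung transcripts, a replicate block and each library left out. Values per library are given for GAPDH, for up to 8 passing members per comparison by smallest p, for the 2 with the smallest p where none passed, and for up to 3 passing genes of each other list. The members named without passing beside these (such as TPI1 in granulocytes), and the core Treg values of HILPDA, were chosen after their values were seen. The 34 genes, the lists and the tests were chosen with earlier results of these data known.

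Per the series design both late sites come from 1 mouse, and the number in the file names was taken as the mouse. Deviations of paired libraries correlated at -0.34, 0.51 and 0.19 in granulocytes, 0.28, 0.22 and 0.29 in CD4, 0.11 and 0.11 in CD8 and 0.07, 0.15 and 0.24 in Treg. With 2 CD8 libraries per group the deviations mirror each other, so the CD8 values are 1 number. Late libraries with different numbers reached 0.529 (granulocyte core 6 with peripheral 11) and 0.323 (CD4 core 7 with peripheral 6), above every pair of those gates. For Treg the highest such value, 0.087, was above the lowest pair only. These correlations therefore do not show which libraries share a mouse. Python 3.11.15, pandas 2.3.3 and matplotlib 3.10.9 were used.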

Additional observations from a re-analysis of the deposited data

Results flagged for a closer look

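Within groups of 4 libraries, 18 of the 168 sets of values checked, over the 34 genes, had a highest or lowest library whose gap to its nearest neighbour took a larger part of the group's range than the 95% limit of Dixon's criterion. Chance flags about 1 in 20 groups.

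Early CD8 library 3 gave 4 of the 18. It stood at 87.0 for HK3, 124 for PFKFB4, 1054 for PKM and 355 for LDHA, above the other 3 early libraries in each. Granulocyte markers reached 33006 in 1 early CD8 library, and their part was not tested. ENO3 was apart in early CD8 library 4, at 31.7.

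In normal Treg, library 3 was apart for GAPDH at 388, MIF at 188 and HIF1A at 2.95, and library 4 for HK1 at 16.4. In normal granulocytes PFKFB4 stood at 245 in library 4 and BNIP3L at 13.5 in library 3. In CD4, DDIT4 stood at 54.0 in normal library 1 and at 28.8 in late peripheral library 4, PKM at 463 in late peripheral library 2 and ADM at 11.6 in late peripheral library 1. Early CD4 libraries were apart for LDHB in library 2 at 29.7, MIF in library 3 at 276 and ADM in library 4 at 14.8.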

How the results depend on the processing

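Of the 39 member calls reported, edgeR lost 5, DESeq2 4, a pseudocount of 1 lost 5, no filter 7, the replicate block 5 and the libraries without lung transcripts 14 of 37, with 0 reversed. Leaving out each library in turn lost 14 calls at least once. Of 78 calls of genes in the other lists, those settings lost 7, 5, 10, 10, 3 and 30 of 74, and leaving out a library lost 28 at least once. UGP2 in Treg against CD4 in normal marrow reversed without lung-positive libraries, from 0.81 to -0.25; the cause was not tested.

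Counts of members that passed moved as follows. In granulocytes, early against normal (2) gave 0 without lung-positive libraries, late peripheral against normal (2) gave 4 with DESeq2 and 1 without the filter or without lung-positive libraries, and core against peripheral (0) gave 1 with DESeq2 or the replicate block. In CD4, late peripheral and late core against normal (0 each) gave 1 with DESeq2, and core against peripheral (1) gave 0 with a pseudocount of 1, without lung-positive libraries or with the replicate block. In CD8, early against normal (0) gave 2 with DESeq2, and core against peripheral and against normal (1 each) gave 2 with edgeR and 3 with DESeq2, the latter also 0 with a pseudocount of 1 or the replicate block. In Treg, early against normal (0) gave 1 with the replicate block, late peripheral against normal (1) gave 0 with a pseudocount of 1, no filter or no lung-positive libraries, and core against normal (2) gave 1 with a pseudocount of 1 or the replicate block and 0 without lung-positive libraries. In normal marrow CD8 against CD4 (2) gave 1 under each of the 6 settings, and Treg against CD4 (6) gave 3 without lung-positive libraries and 4 with edgeR. The difference between granulocytes and CD4 in early marrow (0) gave 1 without the filter. The causes were not tested.

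With each library left out, granulocyte counts ran from 0 to 4 in early, 1 to 2 in late peripheral and 3 to 5 in core against normal, and 0 to 1 in core against peripheral. CD4 counts ran from 0 to 0, 0 to 0, 0 to 1 and 0 to 1 in the same order, CD8 counts from 0 to 0, 0 to 0, 0 to 1 and 0 to 2, and Treg counts from 0 to 0, 0 to 1, 0 to 2 and 0 to 1. In normal marrow they ran from 16 to 17 for granulocytes, 1 to 3 for CD8 and 4 to 7 for Treg against CD4, and the 4 differences between gates stayed at 0.

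The late sites share mice per the series design, so the replicate block is a pairing only there, and only if the number is the mouse. Against normal or early marrow it joins libraries by number alone. No value without lung-positive libraries exists for the CD8 core. Shallow CD8 and CD4 libraries, where 1 read is worth up to 6.34 and 3.71 scaled reads, limit genes near the filter.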

Other observations

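Hypoxia response genes too low to be tested, or near the filter, are given by their values alone. HIF1A, the oxygen-regulated subunit of HIF-1, was 2.49, 3.89, 0 and 2.74 scaled reads in normal and 14.3 and 12.3 in core CD8, and 7.74, 7.04, 2.95 and 7.63 in normal and 15.7, 52.3 and 8.98 in core Treg, with adjusted p of 0.299 and 0.139 by limma. The core libraries of both gates lay above their normal ones. In neither gate did a normal library reach the filter's 10 scaled reads. ANKRD37, an ankyrin repeat protein known as a HIF target, was 0, 0, 1.74 and 0.74 in normal, 6.02, 8.77, 4.05 and 10.3 in early and 2.25, 4.01, 2.57 and 9.93 in late peripheral granulocytes, and every early library was above every normal one. EGLN3, an inducible prolyl hydroxylase, was 5.56, 1.5, 4.77 and 4.07 in normal and 3.01, 12.4, 8.9 and 8.64 in early granulocytes, which overlapped. KDM3A, a histone demethylase, stayed at 2.96 to 4.63 in normal and 0.791 to 4.79 in core granulocytes.

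ADM moved with lung transcripts. It was 9.26 to 19.9 in the 7 CD4 libraries that hold them and 0 to 1.98 in the other 8, 13.3 to 23.1 in 4 and 0 to 0.831 in 8 CD8 libraries, and 2.05 to 6.19 in 7 and 0 to 0.370 in 8 granulocyte libraries, without overlap. In Treg it was 2.16 to 31.4 in 6 and 0 to 2.74 in 7, overlapping. The part of lung RNA in ADM was not tested. It was at 0 in all 6 early and late peripheral CD8 libraries, at 0.831, 16.2, 0 and 18.5 in normal and at 13.3 and 23.1 in core CD8. In CD4 it was 13.2, 0, 14.5 and 19.9 in normal, 0, 1.98, 0 and 14.8 in early, 11.6, 0.342, 0 and 1.03 in late peripheral and 9.26, 17.9 and 1.62 in core marrow, so that libraries at or near 0 and libraries over 9 stood side by side in each group.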
